A study of Homo sapiens with 4 samples.

Results

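Polyamines are small organic cations that bind nucleic acids and that growing cells need for translation and division. The 8 genes described here, ODC1, AMD1, SRM, SMS, SAT1, OAZ1, OAZ2 and AZIN1, encode the enzymes that make and break down polyamines and the proteins that set the stability of the first enzyme. They were picked by name as genes of this pathway, with earlier results of these data known, and all 8 were found among the 23228 gene symbols of the count files. RNA came from U87 MG, an established human glioblastoma line grown in medium with serum. Both groups were transfected with oligofectamine, 1 with a control siRNA and 1 with siRNA against PELP1, and RNA was taken 72 hours later. PELP1 is a large nuclear coregulator of steroid receptor signalling, and an siRNA lowers the mRNA that it matches. There were 2 libraries per group. Only duplicates are stated, so p-values measure only how far these libraries spread, which may be technical. The labels name 1 PELP1 siRNA condition, so loss of PELP1 and other effects of the same siRNA cannot be told apart.

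The pathway starts with ornithine decarboxylase (ODC1), which makes putrescine and is its best known control point. S-adenosylmethionine decarboxylase (AMD1) makes the donor of the aminopropyl groups that spermidine synthase (SRM) and spermine synthase (SMS) add in turn. Spermidine/spermine acetyltransferase (SAT1) marks polyamines for oxidation or export. The antizymes OAZ1 and OAZ2 bind the ornithine decarboxylase protein and lead it to the proteasome without ubiquitin, and the antizyme inhibitor AZIN1, a relative of ODC1 without enzyme activity, takes up the antizyme. Rapidly dividing tumour cells, glioma cells among them, are known for high demand on this pathway. Much of this control acts on protein and translation, which counts of mRNA do not measure.

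The sequences that bear on the members are shown first. ODC1 and SAT1 were the members with large differences between the groups, so the 250 bases upstream of their annotated starts are given (GRCh37, 5′ to 3′ on the gene's strand), with matched motifs in capitals. The letters are those of the RefSeq promoter table (GRCh38.p14), which was matched exactly to GRCh37. Searched on both strands were the E-box (CACGTG), the core of the cAMP response element (TGACGT), the amino acid response element (TGATGCAA), the antioxidant response element (TGACNNNGC), the CCAAT box and the TATA box (TATAA). The cAMP and antioxidant motifs open with the same letters, so 1 place can match both. TGATGCAA was found in 0.776% and TGACNNNGC in 10.9% of all windows and in no window of the 7 members searched (all but AZIN1). The ODC1 stretch (chr2:10588454-10588703, minus strand) held TGACGT and TATAA, and the SAT1 stretch (chrX:23801040-23801289, plus strand) held CCAAT at 2 places, 1 of them on the other strand.
ODC1 upstream: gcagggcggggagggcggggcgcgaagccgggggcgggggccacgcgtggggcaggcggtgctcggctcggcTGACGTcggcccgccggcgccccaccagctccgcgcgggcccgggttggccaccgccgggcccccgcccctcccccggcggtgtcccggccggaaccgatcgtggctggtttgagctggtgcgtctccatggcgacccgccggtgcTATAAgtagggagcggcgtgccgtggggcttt
SAT1 upstream: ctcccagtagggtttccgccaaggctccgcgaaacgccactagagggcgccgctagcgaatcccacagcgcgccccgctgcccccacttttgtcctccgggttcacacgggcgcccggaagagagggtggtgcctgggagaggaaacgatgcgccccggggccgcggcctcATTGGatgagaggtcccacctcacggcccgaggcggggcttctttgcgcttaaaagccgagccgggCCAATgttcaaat
TGACGT occurred in 7.09% of 34943 promoter windows of the same length, TATAA in 19.0% and CCAAT in 32.0%. The TATAA of ODC1 begins 32 bases before the start. No motif was shared by the 2 stretches.

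The E-box is the site bound by MYC and related factors, and it occurred in 6.32% of the windows. In ODC1 it stands in the first intron of the canonical transcript, 80 and 114 bases after the end of exon 1, and nowhere else in the 2856 bases of that intron. In the upstream windows of the other members searched, only SRM held it, 199 bases before its start. Introns of these members were not searched, and the share of 6.32% is for upstream windows. These 3 places are shown with 10 bases on each side (GRCh37, minus strand, E-box in capitals), at chr2:10588152-10588177, chr2:10588118-10588143 and chr1:11120259-11120284.
ODC1 intron, nearer: gggccccgggCACGTGtgcggcgcgc
ODC1 intron, farther: cctgcggagaCACGTGgtcgccgagc
SRM upstream: ggccgggcccCACGTGgcccctggag
The nearer ODC1 place also lies 29 bases before a second ODC1 start of the RefSeq promoter table. The farther ODC1 place also lies in the first exon of 2 other annotated transcripts. A match describes these letters and does not show binding.

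The antizymes are known for a shift of the reading frame: the ribosome skips 1 base at a stop codon, more often when polyamines are plentiful. The GENCODE coding annotation of both genes leaves out 1 base at that stop codon, which is shown in capitals with the bases around it (GRCh37; OAZ1 at chr19:2271427-2271456, plus strand; OAZ2 at chr15:64983700-64983729, minus strand).
OAZ1 frameshift site: cctcggtggtgctccTGAtgcccctcaccc
OAZ2 frameshift site: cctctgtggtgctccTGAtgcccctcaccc
The 2 stretches were identical at 29 of 30 bases. The stop codon follows 68 codons in OAZ1 and 32 in OAZ2. Counts per gene cannot tell how often the frame shifts.

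PELP1 itself stood at 74.0 and 78.1 CPM with control siRNA and at 15.2 and 17.7 CPM after silencing. It fell by 2.21 on the log2 scale (SE 0.097, edgeR adjusted p = 8.32e-14). CPM is a gene's count scaled to a common library total by TMM. The library totals lay between 18670162 and 22858988 gene counts. A chi-square test of the counts gave 2.09 per gene between the controls and 7.13 between the silenced libraries, so each pair was kept as 2 samples. The mesenchymal glioma markers VIM, CD44 and FN1 were at 1979 to 7081 CPM in group means. Of the same list, CHI3L1 was at 187 and 195 CPM and NES at 47.8 and 33.6 CPM (control and PELP1 siRNA). Of the astrocyte markers, GFAP was at 1.37 and 1.53 CPM and AQP4 and ALDH1L1 had 0 counts in all libraries. SLC1A3, of the same list, was at 48.7 and 68.2 CPM and was called higher (log2 fold change 0.49, edgeR adjusted p = 9.58e-05). Of the immune markers AIF1 and CD3E had 0 counts and PTPRC at most 0.0704 CPM in a group mean, while CD68 was at 424 and 404 CPM. The 6 epithelial markers together came to 1.75 to 1.95 CPM per library, and of the 2 tested 1 was higher and 1 lower. Some marker sums moved with the groups: that of the 6 mesenchymal genes (5 lower, 0 higher) from 15062 to 15075 CPM down to 11374 to 11809 CPM, that of 6 neuronal genes (1 of 3 tested lower) from 72.7 to 78.2 down to 57.8 to 63.0 CPM, that of 6 endothelial genes (1 of 4 tested lower) from 16.8 to 17.1 down to 13.0 to 14.3 CPM, and that of 6 astrocyte genes (1 of 3 tested higher) from 49.8 to 53.0 up to 69.1 to 73.6 CPM. The neuronal gene called lower was SNAP25, at 48.3 and 31.3 CPM in the group means, while SYT1 went up from 15.5 to 18.9 CPM. The endothelial gene called lower was KDR, at 13.7 and 9.67 CPM, while TEK went up from 1.87 to 2.48 CPM. SYT1 and TEK did not pass the threshold. The part of these marker sums in the results was not tested. In such bulk RNA, fewer cells of a kind and less RNA per cell cannot be told apart.

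Silencing of PELP1 was followed by lower mRNA of the enzymes that begin synthesis and breakdown, ODC1 and SAT1, and slightly higher mRNA of AMD1 and OAZ2. Of the 8 members 2 fell, 2 rose and 4 did not pass the threshold, an adjusted p under 0.05 in edgeR's quasi-likelihood test over all 13234 genes tested. Over all genes tested, 27.9% were called, 15.0% lower and 12.9% higher, so the members' 4 of 8 are read beside that background. Of all called genes 53.6% were lower, and 41.3% when libraries were scaled by total counts alone, a scaling under which ODC1 and SAT1 were still lower and AMD1 and OAZ2 still higher. All 8 members passed the filter on low counts. Their median log2 fold change was 0.086, against 0.00088 for all genes tested. In 7 of the 8 the libraries of the groups did not overlap, as in 64.2% of all genes tested.

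**Figure D1:**
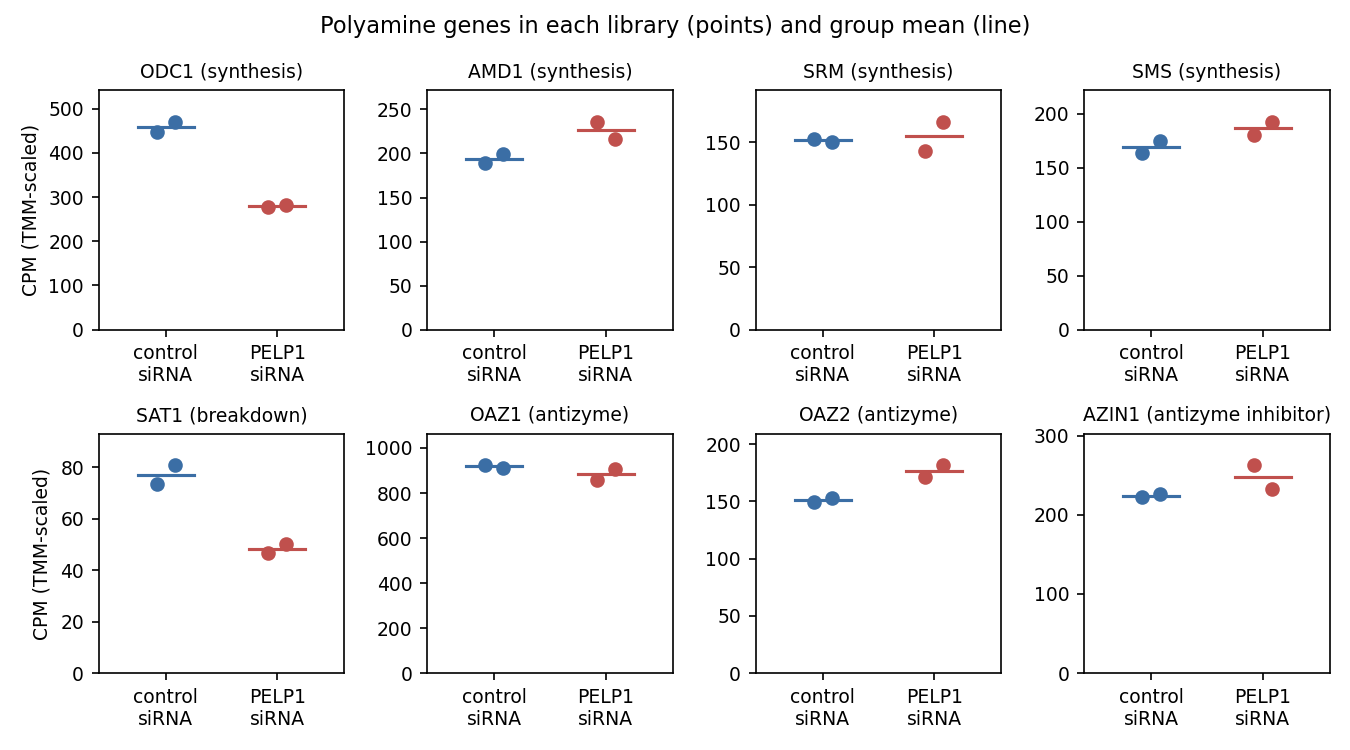
TMM-scaled CPM (vertical axes, from 0) of the 8 polyamine genes in the 2 control siRNA and 2 PELP1 siRNA libraries; points are libraries and lines are group means. The ODC1 points lie at 448 and 471 against 277 and 282 CPM, and those of SAT1 at 73.4 and 80.7 against 46.6 and 50.0 CPM, while the group means of the other 6 genes differ by less than 17% of the control mean.

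ODC1 (chr2:10580094-10588453, minus strand, 12 exons in the canonical transcript) stood at 448 and 471 CPM with control siRNA and at 277 and 282 CPM with PELP1 siRNA. Both silenced libraries lay below both controls, by a gap many times the spread within either pair. Its mean fell by 39.1%, from 459 ± 16.1 to 280 ± 3.63 CPM (SD, n = 2 libraries per group). The log2 fold change was -0.72 (SE 0.062, 95% interval -0.84 to -0.59, edgeR adjusted p = 8.17e-09). Of the 13234 genes tested, 518 (3.91%) had a lower log2 fold change. The counts behind these values were 8684, 10545, 5460 and 5358 reads. No other annotated gene shares its exon bases, and 0 copies in GENCODE carry its symbol. Copies under other names were not searched.

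AMD1 (chr6:111195973-111220082, plus strand) supplies the aminopropyl donor, and its mRNA moved the other way. The control libraries held 189 and 199 CPM and the PELP1 siRNA libraries 236 and 217 CPM. The groups did not overlap, but the gap between the nearest libraries was about the size of the spread within the silenced pair. AMD1 rose by 16.6% (log2 fold change 0.22, SE 0.067, edgeR adjusted p = 0.0149). The call was lost without control library 1 (adjusted p = 0.376), without control library 2 (0.162) and against a minimum fold of 1.2 (1.00), and it rests on a count that is uncertain to the extent that reads match the 4 processed copies of AMD1 named in GENCODE.

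The aminopropyl transferases did not pass the threshold. SRM (chr1:11114641-11120077, minus strand) was at 153 and 149.9 CPM with control siRNA and at 143 and 166 CPM with PELP1 siRNA. The control libraries lay between the silenced ones, so the groups overlapped. Its log2 fold change was 0.031 (95% interval -0.12 to 0.18, edgeR adjusted p = 0.788), which in linear terms spans 0.92-fold to 1.13-fold. SMS (chrX:21958827-22012955, plus strand) was at 164 and 174 CPM with control siRNA and at 181 and 192.5 CPM with PELP1 siRNA. Its libraries did not overlap, and the log2 fold change was 0.14 (95% interval 0.0029 to 0.28, edgeR adjusted p = 0.120). In linear terms the SMS interval reaches 1.21-fold. GENCODE names 3 copies of SRM and 1 of SMS, so their counts carry the same uncertainty as that of AMD1. SRM passed the threshold without PELP1 siRNA library 1 (0.14, adjusted p = 0.00828) and turned to -0.076 without PELP1 siRNA library 2. SMS passed it without PELP1 siRNA library 1 (0.19, adjusted p = 0.000109) and with scaling by total counts (0.19, 0.0379).

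SAT1 (chrX:23801290-23804327, plus strand), the acetyltransferase that begins breakdown, stood at 73.4 and 80.7 CPM with control siRNA and at 46.6 and 50.0 CPM with PELP1 siRNA. Both silenced libraries lay well below both controls. The mean fell by 37.4%, from 77.1 ± 5.19 to 48.3 ± 2.44 CPM (SD, n = 2 libraries per group). The log2 fold change was -0.68 (SE 0.083, 95% interval -0.85 to -0.51, edgeR adjusted p = 1.39e-06), and 596 of the genes tested (4.50%) had a lower one. ODC1 and SAT1 were also the only members called against a minimum fold of 1.2, by glmTreat of edgeR, at adjusted p of 1.41e-06 and 0.000153. Of all genes tested, that test called 8.85%, of which the lower ones made up 5.74% of all genes. SAT1 is known for a spliced form with an extra exon that is degraded, and counts per gene do not separate it from the coding form. It shares 3.63% of its exon bases with 1 unnamed gene on the same strand.

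Of the antizymes, OAZ2 passed the threshold and OAZ1 did not. OAZ1 (chr19:2269508-2273489, plus strand), the most abundant member, was at 924 and 913 CPM with control siRNA and at 859 and 908 CPM with PELP1 siRNA. The libraries did not overlap, but the highest silenced library lay within 1% of the lowest control. The log2 fold change of OAZ1 was -0.056 (95% interval -0.18 to 0.068, edgeR adjusted p = 0.522), and it passed the threshold only without PELP1 siRNA library 2 (-0.092, adjusted p = 0.0426). OAZ1 shares 6.87% of its exon bases with JSRP1 on the opposite strand and 6.40% with an unnamed gene on its own. No label tells whether the counting used strand. GENCODE also names 1 copy of OAZ1.

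OAZ2 (chr15:64979772-64995480, minus strand) was at 149 and 153 CPM with control siRNA and at 171 and 182 CPM with PELP1 siRNA. Both silenced libraries lay above both controls. OAZ2 shares 7.22% of its exon bases with an unnamed gene on the opposite strand. OAZ2 rose by 16.5% (log2 fold change 0.22, SE 0.066, edgeR adjusted p = 0.0155). Like AMD1, it lost the call without control library 1 (adjusted p = 0.338), without control library 2 (0.218) and against a minimum fold of 1.2 (1.00). The difference between the antizymes was not tested.

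AZIN1 (chr8:103838339-103906092, minus strand), which competes for the antizymes, was at 222 and 226 CPM with control siRNA and at 263 and 232 CPM with PELP1 siRNA. The first silenced library stood apart from the other 3, which lay close together. The log2 fold change was 0.14 (95% interval 0.0035 to 0.28, edgeR adjusted p = 0.119). AZIN1 passed the threshold without PELP1 siRNA library 2 (0.23, adjusted p = 2.15e-07) and with scaling by total counts (0.19, 0.0414), and was at 0.057 without PELP1 siRNA library 1, so that its value rests on single libraries.

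**Figure D2:**
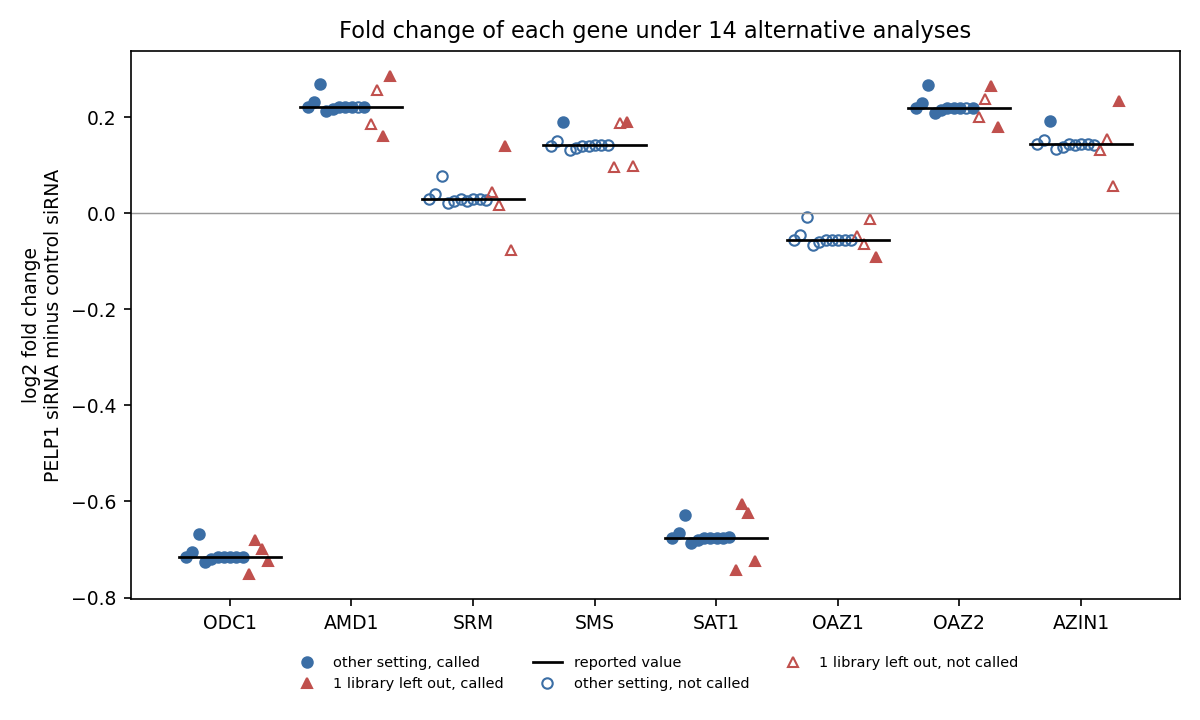
Log2 fold change (PELP1 siRNA minus control siRNA, vertical axis) of each member under 14 alternative analyses; circles are other settings, triangles leave out 1 library, filled symbols passed the threshold and lines give the reported value. ODC1 and SAT1 stay between -0.75 and -0.61 and filled throughout, whereas the other genes lie within 0.3 of 0 and are filled in some analyses only.

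Levels between members were compared per length, as CPM per kb of exon merged over the annotated transcripts. With control siRNA the order was OAZ1 at 267 ± 2.28, ODC1 at 139 ± 4.86, SRM at 79.9 ± 1.05, SMS at 79.4 ± 3.56, AZIN1 at 36.5 ± 0.38, SAT1 at 31.1 ± 2.09, OAZ2 at 19.7 ± 0.35 and AMD1 at 19.0 ± 0.67 CPM per kb (SD, n = 2 libraries). The neighbours SRM and SMS overlapped, as did OAZ2 and AMD1, and the other neighbours did not. With PELP1 siRNA ODC1 stood at 84.6 ± 1.10 CPM per kb, between SMS at 87.6 ± 3.95 and SRM at 81.6 ± 8.67, and the libraries of these 3 synthesis genes overlapped. SAT1 came last at 19.5 ± 0.98 CPM per kb, below AMD1 at 22.2 ± 1.35 and OAZ2 at 23.0 ± 0.99. By the length of the canonical transcript alone OAZ1, ODC1, SRM and SMS kept the first 4 places with control siRNA, while AZIN1 moved from the fifth to the last, at 53.4 CPM per kb. The order of the less abundant genes therefore depends on the length used. Reads aligned to several places were left out, so AMD1, SRM, SMS and OAZ1, which have named copies, may be under-counted in this order.

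**Figure D3:**
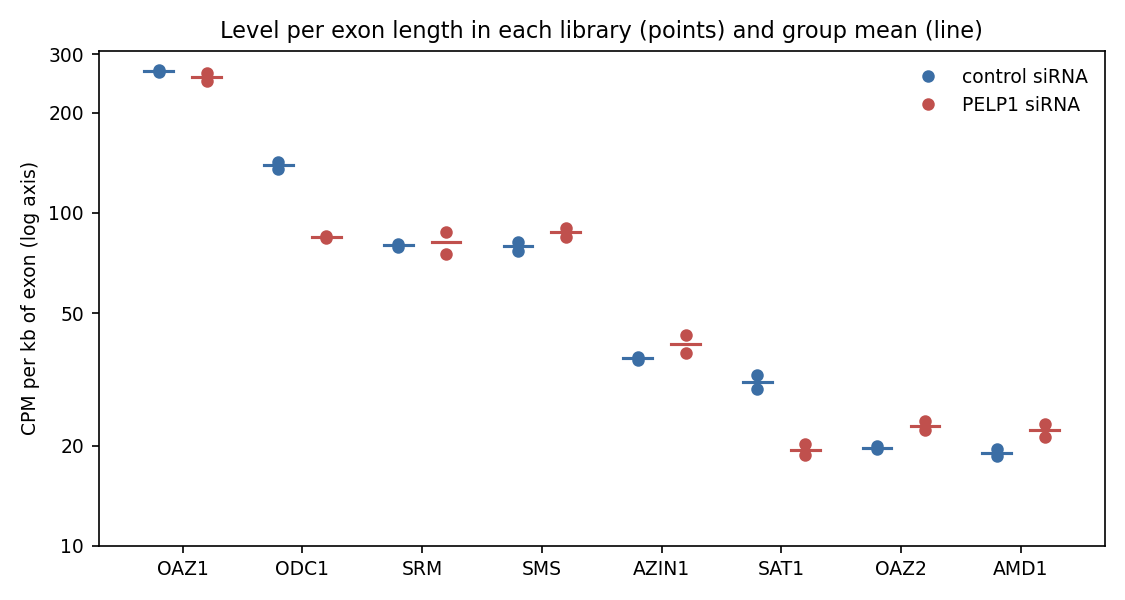
CPM per kb of exon (log axis) of the 8 genes in each library, ordered by the control mean; points are libraries and lines are group means. ODC1 falls from 139 to the level of SMS and SRM near 85, and SAT1 from 31.1 to 19.5, the lowest of the 8.

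The genes closest to ODC1 in pattern were taken over the 4 libraries from log2 CPM centred on the control mean, among 7951 other genes of at least 20 CPM. Among the nearest were PREX1 and MRPL35, at distances of 0.036 and 0.047. The closest to SAT1 were LAMA1, GDF15 and CAMK2N1, at 0.055, 0.064 and 0.069. The log2 fold changes of these 5 genes ran from -0.72 (PREX1) to -0.66 (CAMK2N1). With 4 libraries in 2 groups such likeness is a description.

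The words CTCAGTT and GCCTTGA came from an earlier look at these same fold changes, in which they were common in the 3' UTRs of fallen genes, so they are no independent evidence here. Neither word occurs in the canonical 3' UTR of ODC1 or SAT1, the 2 members that fell. Each occurs 1 time in that of AZIN1, which did not pass the threshold, and neither in those of the other 5 members. At least 1 of the words occurred in 25.4% of the 3' UTRs of 11039 tested genes.

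The rest of the pathway was read from 5 lists with 40 genes, of which 32 could be tested. Of these 3 rose, 9 fell and 20 did not pass the threshold, so that 37.5% were called, beside 27.9% of all genes tested. The median log2 fold change was -0.050. Of the 9 that fell, 3 belong to transport, 2 to the supply of arginine and ornithine and 2 to the methionine cycle. Against a minimum fold of 1.2 the calls of SAT2, ATP13A2, EIF5A2, ARG2, SLC7A1, MAT2A and ENOPH1 were lost, at edgeR adjusted p from 0.0576 (EIF5A2) to 1.00 (SLC7A1).

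Among 6 tested enzymes and regulators close to the members, 1 rose, 1 fell and 4 did not pass the threshold. HDAC10, a deacetylase of acetylated spermidine, stood at 19.8 and 16.3 CPM with control siRNA and at 9.75 and 12.3 CPM with PELP1 siRNA. It fell by 38.8% (log2 fold change -0.71, SE 0.13, edgeR adjusted p = 0.000249), and its groups did not overlap. SAT2, a relative of SAT1, rose by 21.6%, from 59.5 ± 1.33 to 72.4 ± 6.66 CPM (0.28, edgeR adjusted p = 0.0125), a call lost without control library 1 (0.263) or 2 (0.156). The spermine oxidase SMOX was at 18.7 and 20.7 CPM in the group means (0.14, adjusted p = 0.331).

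Among 5 tested genes linked to polyamine transport, 1 rose, 3 fell and 1 did not pass the threshold. ATP13A3, a P-type ATPase linked to polyamine uptake, was at 937 and 920 CPM with control siRNA and at 707 and 557 CPM with PELP1 siRNA. It fell in both silenced libraries, which differed widely from each other (log2 fold change -0.55, SE 0.082, edgeR adjusted p = 6.00e-05). ATP13A2, which moves polyamines out of lysosomes, fell from 67.6 to 52.2 CPM (-0.37, adjusted p = 0.00102, and 0.0854 without control library 2). SLC3A2, the heavy chain of several amino acid transporters, fell from 254 to 188 CPM (-0.43, adjusted p = 2.12e-05). The solute carrier SLC12A8 rose from 8.70 to 12.9 CPM (0.57, adjusted p = 0.00175).

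Spermidine also serves to make hypusine, a modified residue of the translation factor eIF5A. EIF5A was at 444 and 451 CPM in the group means (log2 fold change 0.021, 95% interval -0.11 to 0.15), and the hypusine enzymes DHPS and DOHH did not pass the threshold either. Without PELP1 siRNA library 1 EIF5A passed it (0.097, edgeR adjusted p = 0.0353), and without PELP1 siRNA library 2 its value was -0.049. EIF5A2, the less abundant form, fell from 24.8 ± 0.99 to 17.7 ± 1.11 CPM (-0.48, edgeR adjusted p = 0.000984).

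Ornithine comes from arginine, and of 7 tested genes of that supply 1 rose, 2 fell and 4 did not pass the threshold. ARG2, the mitochondrial arginase that makes ornithine, rose by 32.1%, from 44.5 and 43.2 to 59.0 and 56.8 CPM (log2 fold change 0.40, SE 0.083, edgeR adjusted p = 0.000766, and 0.0707 without control library 2). ASS1, which makes the precursor of arginine from citrulline, fell from 80.5 and 82.5 to 54.5 and 57.0 CPM (-0.55, SE 0.077, edgeR adjusted p = 9.50e-06). The arginine transporter SLC7A1 fell from 239 to 209 CPM (-0.19, adjusted p = 0.0338), a call lost by total-count scaling (0.108), by DESeq2 (0.0598) and without control library 1 (0.316) or 2 (0.367).

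S-adenosylmethionine, the substrate of AMD1, comes from the methionine cycle, and of 10 tested genes 0 rose, 2 fell and 8 did not pass the threshold in edgeR's test. DESeq2 called the same number, 0 higher, and 2 lower. MAT2A, which makes S-adenosylmethionine, fell from 247 and 235 to 196 and 179.9 CPM (log2 fold change -0.36, SE 0.067, edgeR adjusted p = 0.000270, and 0.0565 without control library 1). ENOPH1, an enzyme of methionine salvage, fell from 78.0 to 63.8 CPM (-0.29, adjusted p = 0.00586, but 0.135 and 0.213 without control library 1 or 2). MTAP (chr9:21802635-21937650, plus strand), which clears the by-product of spermidine and spermine synthesis, had 0 counts in all 4 libraries. That allows at most 3 counts, or 0.134 to 0.158 CPM per library. MTAP lies beside CDKN2A, in a stretch that gliomas often delete; copy number was not measured here.

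**Figure D4:**
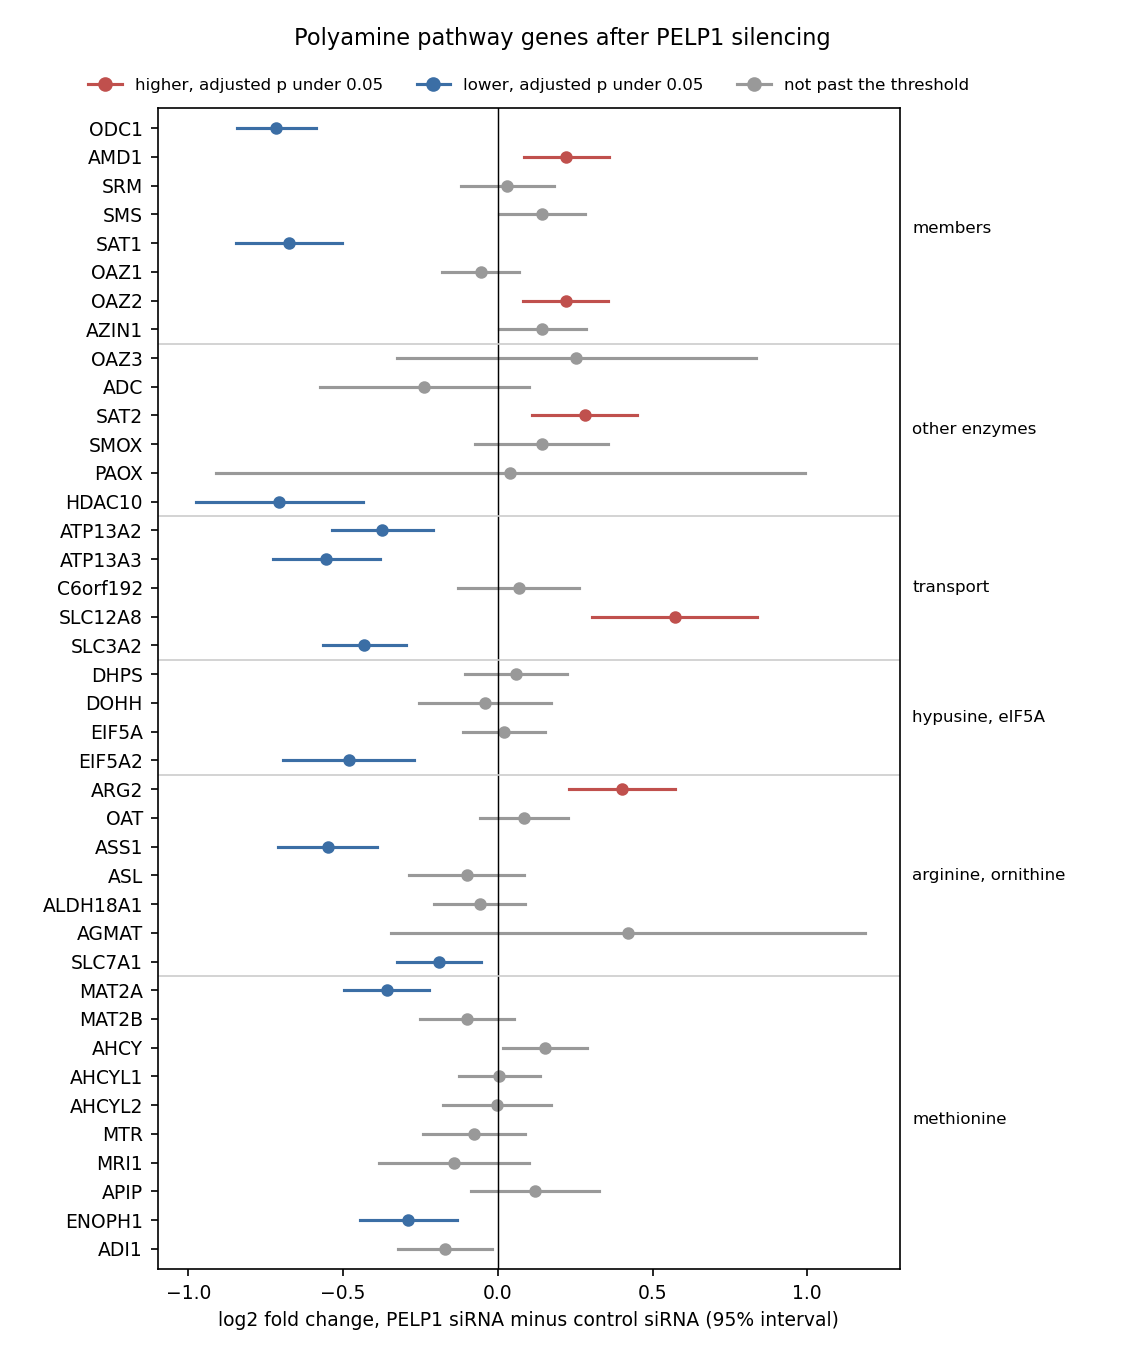
Log2 fold change with its 95% interval (horizontal axis, PELP1 siRNA minus control siRNA) of the 8 members and of the 32 tested genes of the other polyamine lists; red genes were higher, blue genes lower at an adjusted p under 0.05, and grey genes did not pass. ODC1 at -0.72, HDAC10 at -0.71 and SAT1 at -0.68 lie farthest to the left, and SLC12A8 at 0.57 is the rightmost red point.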

How the data were processed

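Per the labels' protocols, TruSeq Total RNA libraries were read as single 50 bp ends. The tools named are CASAVA 1.8.2, TopHat2 2.0.8b and HTSeq, with hg19 (GRCh37) as the build, per the submitters' processing notes. The deposited values are raw read counts per gene symbol, 1 file per library, not normalized by the authors. For the annotation release, HTSeq version and strand setting: not given in the sources used here. The 5 summary lines of the counter, 36.0 to 37.6% of all counts, were left out; reads aligned to several places were among them, so genes with close copies are under-counted. Of 23228 symbols, 13234 passed filterByExpr (minimum count 10, minimum total 15). Counts of all 4 libraries (2 control siRNA, 2 PELP1 siRNA) entered 1 robust quasi-likelihood fit in edgeR 4.0.16 under R 4.3.3, with TMM scaling and group as the term. P-values were adjusted by Benjamini-Hochberg over all genes tested, and every adjusted p comes from edgeR unless DESeq2 1.42.0 is named. DESeq2 and limma 3.58.1 served as alternatives.

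At this depth precision of the members is set mostly by the spread between libraries (biological coefficient of variation 5.23%). For genes with fewer counts, such as HDAC10 (192 to 384 counts), counting error adds to it. The limit for 0 counts covers counting error only. In simulated data over 13128 genes, 40.0% of changes of 1.25-fold, 76.0% of 1.5-fold, 82.0% of 2-fold and 100% of 4-fold were recovered (50 each), and 8 of 157 calls were false. Far fewer genes were changed in the simulated data than the 3692 called here, which makes the adjusted p stricter there. The recovered shares may therefore be too low for the real data. The changed genes were also drawn at random from all genes past the filter, some with far fewer counts than the members. The shares are thus not specific to the members. The members and lists were chosen with earlier results of these data known. Named genes are the members, PELP1, list genes past the threshold or of at least 5 CPM, and the 3 genes nearest to ODC1 and SAT1; 1 of these and 1 marker are not reported here. Coordinates and exon lengths are from GENCODE v44lift37. Markers of other cell types were of neurons, endothelium, epithelium, immune cells and astrocytes. Alternatives were 3 scalings, 2 filters, 2 other tests, a fit without robust estimation, a fold minimum of 1.2, a replicate block and leaving out each library.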

Additional observations from a re-analysis of the deposited data

How the results depend on the processing

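ODC1 and SAT1 were lower and past the threshold under all 14 alternatives, with log2 fold changes of -0.75 to -0.67 and -0.74 to -0.61. When a fold of at least 1.2 was required, 411 genes passed as higher and 760 as lower, in place of 1712 and 1980, and 0 members were higher (AMD1 0.22 and OAZ2 0.22, both with an adjusted p of 1.00). DESeq2's Wald test called 1127 genes higher and 1425 lower. With scaling by total counts 4 members were higher, adding SMS (0.19, adjusted p = 0.0379) and AZIN1 (0.19, adjusted p = 0.0414). Under that scaling the median log2 fold change of all genes is 0.049, and it lowers the share of called genes that were lower from 53.6% to 41.3%.

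Leaving out 1 library gave 523 to 2724 genes higher and 943 to 2804 lower, and 0 to 4 members higher and 2 to 3 lower; the lone sample is then assumed to vary like the other group. With 1 library left out, the log2 fold changes ran from 0.16 to 0.29 for AMD1, 0.18 to 0.27 for OAZ2 and -0.076 to 0.14 for SRM. They ran from 0.096 to 0.19 for SMS, -0.092 to -0.012 for OAZ1 and 0.057 to 0.23 for AZIN1. The cause was not tested.

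Same-numbered libraries showed no common deviation (correlation -0.062 over 10594 genes). With 2 libraries a group, the crossed pairing gives the mirror value of 0.062. Whether same-numbered libraries shared a batch is not stated, and so small a comparison cannot tell. With the replicate block 1613 genes were higher and 1968 lower, ODC1 was at -0.72 and SAT1 at -0.67, and no call of a member changed. Of 15 other genes called in the polyamine and MYC lists, 6 kept the call under all 14 alternatives: HDAC10, ATP13A3, SLC12A8, SLC3A2, ASS1 and MYC. With 2 libraries a group, small changes were often missed in simulated data, which held fewer changed genes than were called here.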

Other observations

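MYC and its partners were looked at beside the E-boxes of ODC1 and SRM, since ODC1 is a classical target of MYC. Of 9 tested genes of this network 1 rose, 2 fell and 6 did not pass the threshold, beside 27.9% called over all genes tested. MYC stood at 65.8 and 67.2 CPM with control siRNA and at 45.8 and 50.6 CPM after silencing (log2 fold change -0.47, SE 0.083, edgeR adjusted p = 0.000168). Both silenced libraries lay below both controls, as they did for ODC1. The groups did not overlap in 64.2% of all genes tested, so this likeness is only a description. SRM, which also carries an E-box, overlapped between the groups. The partner MAX was at 67.1 and 60.1 CPM in the group means (-0.16, adjusted p = 0.135, and 0.0189 without PELP1 siRNA library 2). MXD1, which competes with MYC for MAX, fell from 19.9 to 15.9 CPM (-0.33, adjusted p = 0.0426), and its relative MXD3 rose from 8.05 and 7.94 to 10.1 and 11.1 CPM (0.40, adjusted p = 0.0258). Both calls were lost without control library 1 (0.0687 and 0.183), without control library 2 (0.464 and 0.207), without PELP1 siRNA library 2 (0.206 and 0.0571), against a minimum fold of 1.2 (0.542 and 0.309) and by DESeq2 (0.157 and 0.148). That of MXD1 was also lost with scaling by total counts (0.0928) and without robust estimation (0.0507), and its value ran from -0.49 without PELP1 siRNA library 1 to -0.17 without PELP1 siRNA library 2. The part of MYC in the values of ODC1 was not tested.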
